A study of Homo sapiens with 6 samples.

Results

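The 4 HOX clusters were followed in RNA-seq libraries of cells labelled NCI-H69. That name belongs to an established human line of small cell lung cancer, a tumour type with neuroendocrine features. Members were all rows of the deposited table whose symbol is HOXA, HOXB, HOXC or HOXD with a paralog number, 38 of 17170 genes. RefSeq lists 39 such genes in the human genome, and HOXB1 is not analysed here. The series holds 6 samples. In 3 of them, labelled control, the cells carried a non-targeting guide RNA. The other 3 are labelled as stable CRISPR/Cas9 knockout cells for SCRMP, which MIR7-3HG encodes, and they are not analysed here because no column of the table carries their names. Cells of both groups were grown in RPMI-1640 with fetal bovine serum, all 6 share a batch label, and the labels do not say whether the edited cells were a clone or a pool. Every value below is therefore a level in the 3 libraries labelled control, and errors are SDs over these libraries (n = 3). The groups were not tested against each other. The labels call the 3 samples biological replicates without saying what was separate about them, so the SDs may be partly technical.

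HOX genes code for homeodomain transcription factors. They lie in 4 clusters, and within a cluster the order of the genes along the chromosome, counted by paralog number from 1 to 13, follows the order in which they are switched on along the head-to-tail axis and the limb axis of an embryo. Low numbers act near the head end and high numbers in the tail region, the distal limb and the urogenital and hindgut region. Adult cells such as fibroblasts keep much of the HOX pattern of their body site, which is why the pattern is read as a positional record. Lung tissue is known for paralogs of the low and middle numbers, above all HOXA5.

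The 3 libraries held 20941185, 22309228 and 22477571 estimated reads on genes. Levels are in TPM, a unit scaled to the library's total that divides by transcript length, so genes can be compared with each other. Of all 17170 genes, 66.5% reached 1 TPM in each library. Defining markers of the labelled cell type were nearly absent. Of 14 measured neuroendocrine markers, 1 reached 1 TPM in all 3 libraries, the adhesion molecule gene NCAM1 (25.7 TPM ± 3.66), while INSM1 had 0.650 TPM ± 0.0458, SYP 0.717 TPM ± 0.205 and CHGA 0.080 TPM ± 0.020. The lung factor gene NKX2-1, also on that list, had 0.430 TPM ± 0.140. Of 18 mesenchymal markers 15 reached that level, or 83.3%, led by VIM (4542 TPM ± 87.8), POSTN (693.8 TPM ± 96.2) and COL3A1 (567.5 TPM ± 19.0), with TWIST1 at 320.5 TPM ± 4.86. Of 14 epithelial markers 4 did, or 28.6%, led by ESRP1 (39.4 TPM ± 5.22), CLDN7 (16.1 TPM ± 2.42) and KRT8 (3.04 TPM ± 0.257), with EPCAM at 0.620 TPM ± 0.249 and CDH1 at 0.203 TPM ± 0.0252. The summed level of a list ranged over the libraries from 25.04 to 32.81 TPM for the neuroendocrine, 6611 to 6639 TPM for the mesenchymal and 57.1 to 70.9 TPM for the epithelial markers. The part that these departures from the labelled cell type have in the HOX pattern was not tested. In bulk RNA, a level shared by all cells and a higher level in some of them cannot be told apart.

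HOX genes were expressed from all 4 clusters, and the highest levels came from paralogs of high number. Detection was set at a minimum of 1 TPM in each of the 3 libraries, which 21 of the 38 members reached, or 55.3%, against 66.5% of all genes in the table. For 8 members the mean was 10 TPM or higher, or 21.1%, against 44.1% of all genes. The background moved with the threshold: 24 members and 70.2% of all genes passed at 0.5 TPM, 14 and 52.6% at 5 TPM, 18 and 63.3% at 1 FPKM, and 26 and 73.0% at 10 estimated reads. A mean of 10 FPKM was reached by 4 members and 34.2% of all genes. The 8 members at 10 TPM were HOXC10, HOXB9, HOXA11, HOXA13, HOXC6, HOXC13, HOXB7 and HOXD13. The median member stood at 1.51 TPM ± 0.165 and the median gene of the table at 6.83 TPM ± 0.461. All members together made up 0.0239% of TPM. Members with paralog numbers 9 to 13 held 74.7% ± 1.16 of the summed HOX level, those numbered 4 to 8 held 22.5% ± 1.21 and those numbered 1 to 3 held 2.81% ± 0.426. Members detected were 11 of 16 in the highest range, 7 of 15 in the middle range and 3 of 7 in the lowest.

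**Figure D1:**
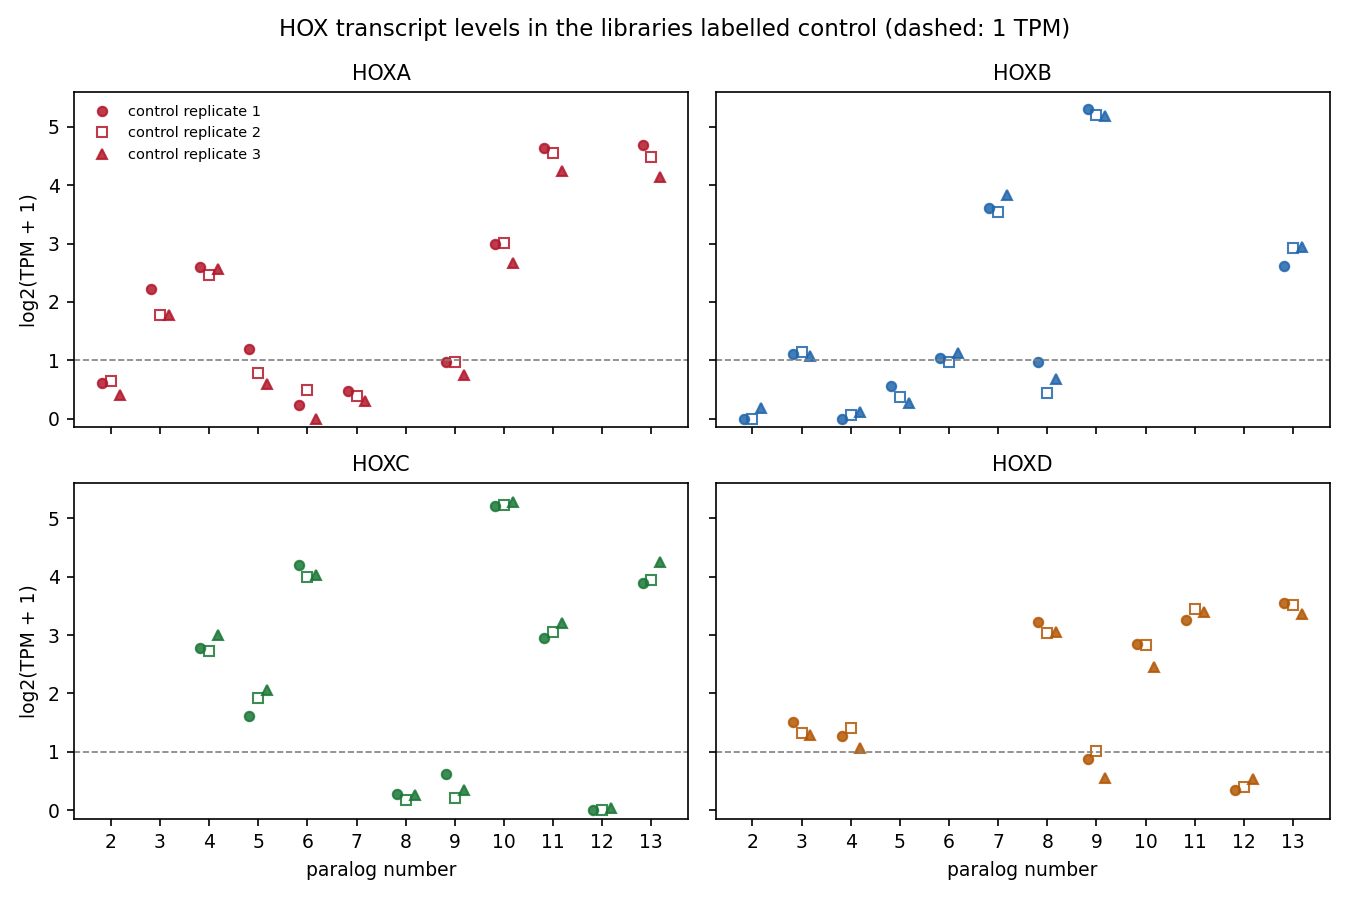
Transcript levels of the measured HOX genes with paralog numbers 2 to 13 on the log2(TPM + 1) scale against paralog number, 1 panel per cluster and 1 symbol per library labelled control; the dashed line marks 1 TPM. Each cluster has its highest symbols at paralog 9 or above, and each has breaks in detection between detected members. These are at paralogs 5, 6, 7 and 9 of HOXA and at 4, 5, 6 and 8 of HOXB. In HOXC they are at 8, 9 and 12 and in HOXD at 9 and 12.

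The clusters contributed unequally. HOXC held 35.5% ± 2.87 of the summed HOX level, from 33.3%, 34.5% and 38.8% in replicates 1, 2 and 3. HOXA held 24.997% ± 3.31, HOXB 24.1% ± 0.994 and HOXD 15.3% ± 0.702. HOXC was highest and HOXD lowest in each of the 3 libraries by TPM; by estimated reads, where length is not divided out, HOXA held 33.8% and HOXC 30.5%. By TPM, HOXA stood above HOXB in replicates 1 and 2 (27.7% against 23.6%, and 26.0% against 23.5%) and below it in replicate 3 (21.3% against 25.3%). The members detected were 5 of 11 in HOXA (45.5%) and 4 of 9 in HOXB (44.4%), against 66.5% of all genes. In HOXC and in HOXD they were 6 of 9 each (66.7%), a share like that of all genes. Across the genes of a cluster, paralog number and mean level had a Spearman correlation of 0.55 in HOXA (n = 11), 0.67 in HOXB (n = 9), 0.50 in HOXD (n = 9) and 0.03 in HOXC (n = 9). These correlations are descriptions across genes that share the same 3 libraries.

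Paralogs numbered 13, the last genes of the clusters and known for the distal limb, the hindgut and the urogenital tract, were detected in all 4 clusters. HOXA13 had 24.9, 21.5 and 16.6 TPM in replicates 1, 2 and 3, a mean of 21.003 TPM ± 4.15. HOXC13, which is also known from hair and nail, had 13.9, 14.4 and 18.1 TPM, a mean of 15.5 TPM ± 2.31. HOXD13 had 10.7, 10.4 and 9.23 TPM (10.1 TPM ± 0.760) and HOXB13, known from prostate and hindgut, 5.10, 6.58 and 6.69 TPM (6.12 TPM ± 0.888). The ranges of HOXA13 and HOXC13 overlapped, with HOXA13 lowest and HOXC13 highest in replicate 3, while HOXB13 lay below the other 3 in every library. Their summed level was 52.7 TPM ± 1.93, the highest of the paralog numbers. Because reads of near-identical genes can be assigned to the wrong copy, the homeobox of each, the stretch that codes for the DNA-binding homeodomain, is shown. All are the coding strand of GRCh38 (GENCODE 29), found by translating the transcripts and taking the 180 bases that hold the conserved motif of the recognition helix, at chr7:27198222-27198401 (minus strand), chr17:48726820-48726999 (minus), chr12:53945041-53945220 (plus) and chr2:176094524-176094703 (plus). Capitals mark bases that differ from HOXA13.
HOXA13: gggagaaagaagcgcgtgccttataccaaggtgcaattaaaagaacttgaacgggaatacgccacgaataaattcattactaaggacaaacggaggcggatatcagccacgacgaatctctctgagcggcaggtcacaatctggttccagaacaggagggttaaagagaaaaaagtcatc
HOXB13: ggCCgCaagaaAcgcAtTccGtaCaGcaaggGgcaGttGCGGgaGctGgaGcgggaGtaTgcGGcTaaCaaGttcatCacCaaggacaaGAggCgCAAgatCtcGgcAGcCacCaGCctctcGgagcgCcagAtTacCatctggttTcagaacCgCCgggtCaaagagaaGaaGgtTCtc
HOXC13: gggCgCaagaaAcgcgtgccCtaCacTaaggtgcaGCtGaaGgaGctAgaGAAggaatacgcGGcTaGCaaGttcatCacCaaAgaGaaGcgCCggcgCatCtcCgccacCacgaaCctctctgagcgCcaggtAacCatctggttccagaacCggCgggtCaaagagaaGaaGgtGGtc
HOXD13: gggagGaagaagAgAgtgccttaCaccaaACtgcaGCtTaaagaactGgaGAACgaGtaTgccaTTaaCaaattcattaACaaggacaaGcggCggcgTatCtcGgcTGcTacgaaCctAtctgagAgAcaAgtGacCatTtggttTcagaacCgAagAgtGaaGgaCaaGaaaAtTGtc

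These stretches were 69.4% (HOXB13), 76.1% (HOXC13) and 73.3% (HOXD13) identical to that of HOXA13, with 55, 43 and 48 of 180 bases different. No run of 25 or more identical bases was shared between the transcripts of any pair of them.

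Paralogs numbered 12 broke the series. HOXC12 had 0, 0 and 1 read in replicates 1, 2 and 3, where 3 reads, the upper limit that a count of 0 allows, would be worth 0.060 TPM. HOXD12 had 0.270, 0.310 and 0.450 TPM from 8, 9.98 and 15 reads. Both lay far below the genes on either side of them: HOXC12 stands between HOXC13 and HOXC11 (7.42 TPM ± 0.760), and HOXD12 between HOXD13 and HOXD11 (9.33 TPM ± 0.689). The mean level of HOXD13 was 29.4 times and that of HOXD11 27.2 times that of HOXD12, although the gene lies only 3850 bp from HOXD13 and 4790 bp from HOXD11.

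The 250 bases before the annotated starts of these 3 neighbours are shown because their levels differ so widely over so short a distance. They come from RefSeq (GRCh38.p14, plus strand), at chr2:176092471-176092720, chr2:176099545-176099794 and chr2:176107030-176107279. Capitals mark CG, the site of DNA methylation in vertebrates.
HOXD13: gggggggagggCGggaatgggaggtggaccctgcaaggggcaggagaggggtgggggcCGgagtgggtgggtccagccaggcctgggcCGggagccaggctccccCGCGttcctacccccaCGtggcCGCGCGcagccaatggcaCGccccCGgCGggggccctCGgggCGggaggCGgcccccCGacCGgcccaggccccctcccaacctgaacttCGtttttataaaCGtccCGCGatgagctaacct
HOXD12: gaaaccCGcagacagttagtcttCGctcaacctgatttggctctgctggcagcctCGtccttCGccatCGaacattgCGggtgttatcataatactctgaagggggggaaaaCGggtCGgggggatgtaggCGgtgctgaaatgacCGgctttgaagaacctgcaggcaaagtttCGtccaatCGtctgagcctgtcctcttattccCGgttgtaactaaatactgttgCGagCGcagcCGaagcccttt
HOXD11: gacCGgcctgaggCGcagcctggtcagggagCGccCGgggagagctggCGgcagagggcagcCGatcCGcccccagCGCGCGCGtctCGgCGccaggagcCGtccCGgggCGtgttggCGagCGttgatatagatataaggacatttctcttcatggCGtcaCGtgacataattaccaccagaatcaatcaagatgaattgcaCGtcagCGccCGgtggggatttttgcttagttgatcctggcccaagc

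The HOXD13, HOXD12 and HOXD11 windows held 21, 16 and 23 CG, with 74%, 53.2% and 61.6% G and C. Windows of the same length were found for 19 of the 38 members, some with several starts: 9 HOXA, 2 HOXC, 8 HOXD and no HOXB genes, so HOXC10 and HOXB9 are not among them. Over the 25 distinct HOX windows the median was 20 CG, against 11 over all 34943 windows in the RefSeq table. At least 10 CG were held by 80.0% of HOX windows, against 52.1% of all. The windows of all genes cover 27167 genes and were not limited to measured genes or to 1 type of gene. The word CG reads the same on both strands. The median was 19 CG over the 19 windows of detected members and 23.5 CG over the 6 windows of members that were not detected. HOXA3 alone gave 7 of the 19 windows, and without it the median of detected members was 22 CG over 12 windows. HOXD1, with 31 CG, had 1 read in the 3 libraries together, and HOXA13, with 40 CG, was among the highest.

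Paralogs numbered 11 and 10 were detected wherever they exist. HOXA11, a factor of kidney, uterus and forearm development, had 24.0, 22.5 and 18.1 TPM, a mean of 21.5 TPM ± 3.08. HOXD11 had 8.57, 9.91 and 9.52 TPM, and HOXC11, known from the hindlimb and lumbosacral region, 6.72, 7.32 and 8.23 TPM. HOXD11 and HOXC11 both lay below HOXA11 in every library, and every HOXD11 value was above every HOXC11 value. HOXC10, also known from the lumbar and hindlimb region, had 36.2, 36.5 and 37.8 TPM (36.8 TPM ± 0.824), the highest mean of the HOX genes with HOXB9 (36.6 TPM) not told apart from it. Without replicate 2 or without replicate 3 the mean of HOXB9 was the higher (37.035 against 36.995 TPM, and 37.23 against 36.365 TPM), and by estimated reads HOXA13 was highest. HOXC10 also had the lowest spread between libraries among detected members, a coefficient of variation of 2.24%, below the 3.34% that counting its reads alone would give. HOXA10 had 6.97, 7.10 and 5.39 TPM (6.49 TPM ± 0.952) and HOXD10 6.17, 6.11 and 4.49 TPM (5.59 TPM ± 0.953), so HOXC10 was several times higher than its paralogs in each library. RefSeq also lists a read-through gene, HOXA10-HOXA9, which is not analysed here. The homeobox stretches of the 3 paralogs are shown to compare HOXC10 with its paralogs, at chr12:53989219-53989398 (plus strand), chr7:27171947-27172126 (minus) and chr2:176119004-176119183 (plus) of GRCh38. Capitals mark bases that differ from HOXC10.
HOXC10: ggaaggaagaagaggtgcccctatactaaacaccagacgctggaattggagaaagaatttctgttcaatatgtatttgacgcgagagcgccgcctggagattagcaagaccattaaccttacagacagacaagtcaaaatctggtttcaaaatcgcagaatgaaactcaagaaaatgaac
HOXA10: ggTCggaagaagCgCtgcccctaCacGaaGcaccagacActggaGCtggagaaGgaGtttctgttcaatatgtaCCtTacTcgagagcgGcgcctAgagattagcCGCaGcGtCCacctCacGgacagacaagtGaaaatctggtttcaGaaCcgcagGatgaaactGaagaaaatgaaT
HOXD10: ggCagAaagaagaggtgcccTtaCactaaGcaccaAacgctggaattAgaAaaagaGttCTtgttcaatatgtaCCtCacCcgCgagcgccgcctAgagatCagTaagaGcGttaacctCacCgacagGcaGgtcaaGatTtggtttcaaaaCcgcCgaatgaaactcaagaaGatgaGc

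HOXA10 and HOXD10 were 81.7% and 82.8% identical to HOXC10 here, and no pair of the 3 shared a run of 25 identical bases in its transcripts. Over all 703 pairs of members the homeobox stretches were 47.8% to 91.1% identical, with a median of 81.7% for the 40 pairs of the same paralog number and 60.6% for the other 663 pairs.

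Paralogs numbered 9 were detected in HOXB alone by the 1 TPM rule. HOXB9 had 38.7, 35.8 and 35.4 TPM (36.6 TPM ± 1.76), a range that overlapped that of HOXC10. HOXA9, well known from blood progenitors and leukaemia, had 0.960, 0.960 and 0.680 TPM from 23, 25 and 18 reads, just under the threshold. HOXD9 had 0.830, 1.02 and 0.460 TPM and HOXC9 0.530, 0.160 and 0.270 TPM from 9, 3 and 5 reads. The mean of HOXC10 was 115 times that of its neighbour HOXC9, which lies 9881 bp away, and HOXB9 stood 57.2 times above its neighbour HOXB8. HOXB9 and HOXD9 share an identical run of 40 bases, so a few reads could be assigned to either.

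The middle of the clusters, paralogs 4 to 8, held detected genes next to genes near 0 TPM. HOXC6 had 17.4, 15 and 15.3 TPM (15.9 TPM ± 1.31) and HOXB7 11.3, 10.6 and 13.3 TPM (11.7 TPM ± 1.38). HOXD8 followed with 8.33, 7.20 and 7.29 TPM (7.61 TPM ± 0.628). These are thoracic genes in the embryo, and each was the sole detected member of its number. HOXB7 stood 18.3 times above HOXB8 (0.640 TPM ± 0.296) on one side and 10.98 times above HOXB6 (1.07 TPM ± 0.120) on the other, within a stretch where gaps between genes were 1328 and 2245 bp. HOXB6 had 1.06, 0.950 and 1.19 TPM and so missed detection in replicate 2 only. Transcripts of HOXB6 and HOXB7 share an identical run of 51 bases and those of HOXB7 and HOXB8 one of 27. How many reads were exchanged within these pairs, and so moved the ratios, was not tested. HOXC8 had 0.210, 0.130 and 0.190 TPM from 6, 4 and 6 reads, HOXA7 0.310 TPM ± 0.080 and HOXA6 0.197 TPM ± 0.206.

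HOXC4 had 5.84, 5.63 and 7 TPM (6.16 TPM ± 0.738) and HOXC5 2.05, 2.77 and 3.15 TPM (2.66 TPM ± 0.559). HOXC4, HOXC5 and HOXC6 share an annotated start at position 54016888 of chromosome 12 in RefSeq. Transcripts of HOXC4 and HOXC6 share an identical run of 484 bases in GENCODE 29, and those of HOXC5 share no run of 25 or more with either. The split of reads among these 3 genes is thus uncertain, for HOXC5 by the shared start alone. No other pair of members shared more than 65 bases, the value for HOXB3 and HOXB4. HOXA4 had 5.04, 4.53 and 4.95 TPM (4.84 TPM ± 0.272) and HOXD4 1.41, 1.66 and 1.09 TPM (1.39 TPM ± 0.286), while HOXB4, a gene of blood stem cells, had 0, 1 and 2 reads. HOXA5, the paralog most tied to lung development, had 1.30, 0.730 and 0.510 TPM from 25, 15.2 and 10.98 reads and was not detected in all libraries. HOXB5, also known from lung, had 0.470, 0.300 and 0.210 TPM. HOXB5 thus lay under 1 TPM in all 3 libraries and HOXA5 in replicates 2 and 3.

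Paralogs 1 to 3, which pattern the hindbrain and branchial arches, had the lowest summed level of the 3 ranges, although paralog 3 summed to more than paralog 5, and paralog 12 to less than any other number. All 3 measured paralogs numbered 3 were detected at low levels, HOXA3 at 3.64, 2.41 and 2.44 TPM (2.83 TPM ± 0.702), HOXD3 at 1.85, 1.49 and 1.45 TPM (1.60 TPM ± 0.220) and HOXB3 at 1.16, 1.21 and 1.10 TPM (1.16 TPM ± 0.0551). The annotated spans of HOXA3 and HOXA4, of HOXB3 and HOXB4 and of HOXD3 and HOXD4 overlap, introns included. Transcripts of HOXB3 and HOXB4 share an identical run of 65 bases and those of HOXD3 and HOXD4 one of 30. HOXA3 and HOXA4 transcripts share no run of 25 or more. How many reads were exchanged within these pairs was not tested. Neither measured paralog numbered 2 was detected. HOXA2 had 0.520, 0.570 and 0.320 TPM. HOXB2 had reads in replicate 3 only, 2 of them, and HOXD1 a single read in replicate 1, where 3 reads would be worth 0.195 and 0.150 TPM. Of the 17 members not detected, 14 were under 1 TPM in every library and 3 (HOXA5, HOXB6 and HOXD9) crossed it in at least 1.

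Ordered by mean level and grouped by overlap of their library ranges, the members formed a few steps rather than 38 distinct ranks. HOXC10 and HOXB9 overlapped each other and stood apart, since the lowest HOXB9 value, 35.4 TPM, lay above the highest of any other member, 24.9 TPM in HOXA13. Next came HOXA11, HOXA13, HOXC6 and HOXC13, whose neighbouring ranges overlapped. Below them HOXB7, HOXD13 and HOXD11 overlapped in turn, as did the run from HOXD8 through HOXC11, HOXA10, HOXC4, HOXB13 and HOXD10 to HOXA4. HOXA3 and HOXC5 followed, then HOXD3, HOXD4 and HOXB3. Of the 37 pairs of neighbours in this order 32 had overlapping library ranges, and 5 did not overlap. Overlap of ranges ignores that both genes of a pair were measured in the same libraries. HOXA13 was above HOXC6 in every library despite the overlap, while HOXC10 and HOXB9 changed places between libraries. The detected member with the lowest mean, HOXB3 at 1.16 TPM, and the highest one that was not detected, HOXB6 at 1.07 TPM, overlapped as well.

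**Figure D2:**
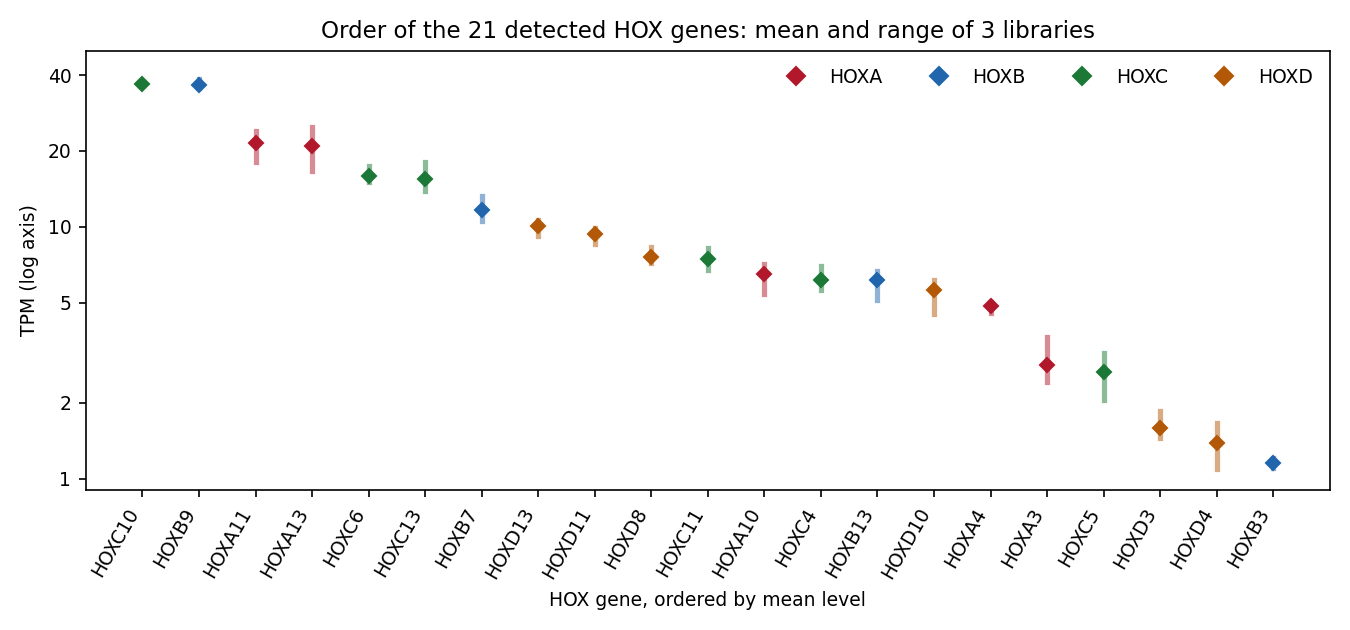
The 21 detected HOX genes ordered by mean TPM on a log axis, coloured by cluster; diamonds are means and bars span the lowest to the highest of 3 libraries labelled control. The first pair, HOXC10 and HOXB9, lies above all other bars, and most neighbouring bars overlap.

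The members of each cluster were compared between libraries, as a description in which genes are not replicates. Among the 23 members with at least 20 estimated reads on average, HOXC genes were highest in replicate 3 in 5 of 6 cases, against 24.7% of all genes with that many reads. HOXC6 was the exception. The split of reads among HOXC4, HOXC5 and HOXC6 is uncertain, and HOXC10 varied by less than counting would give. HOXB genes were highest in replicate 3 in 3 of 5 cases and lowest there in 2 of 5. No HOXA or HOXD gene was highest there. HOXA genes were lowest in replicate 3 in 4 of 6 cases and HOXD genes in 4 of 6, against 52.5% of all genes, which is close to the background. With at least 100 reads HOXC was highest in replicate 3 in 4 of 5 cases and HOXB in 2 of 3, against 24.6% of all genes. At this minimum HOXA was lowest in replicate 3 in 3 of 4, HOXD in 2 of 4 and HOXB in 1 of 3, against 53.7%. HOXA as a whole summed to 68.8, 61.7 and 49.5 TPM in replicates 1, 2 and 3, HOXC to 82.9, 82.0 and 90.1 TPM, HOXB to 58.7, 55.8 and 58.7 TPM and HOXD to 38.1, 38.1 and 34.0 TPM. The median detected member had a coefficient of variation of 11.98%, from 2.24% for HOXC10 to 24.8% for HOXA3, and counting error alone would give a median of 7.14%. Among genes with a mean of at least 10 TPM the median was 10.03% for the 8 HOX genes and 6.11% for all genes. These groups were not matched for level: the HOX means ran from 10.1 to 36.8 TPM, while all genes reached values such as 4542 TPM for VIM. HOXA13, with a mean of 1311 reads, varied by 19.8% where counting would give 2.76%, and HOXC13 by 14.9% where it would give 4.69%. Nothing was compared between conditions here, and the cause of these differences between libraries was not tested.

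**Figure D3:**
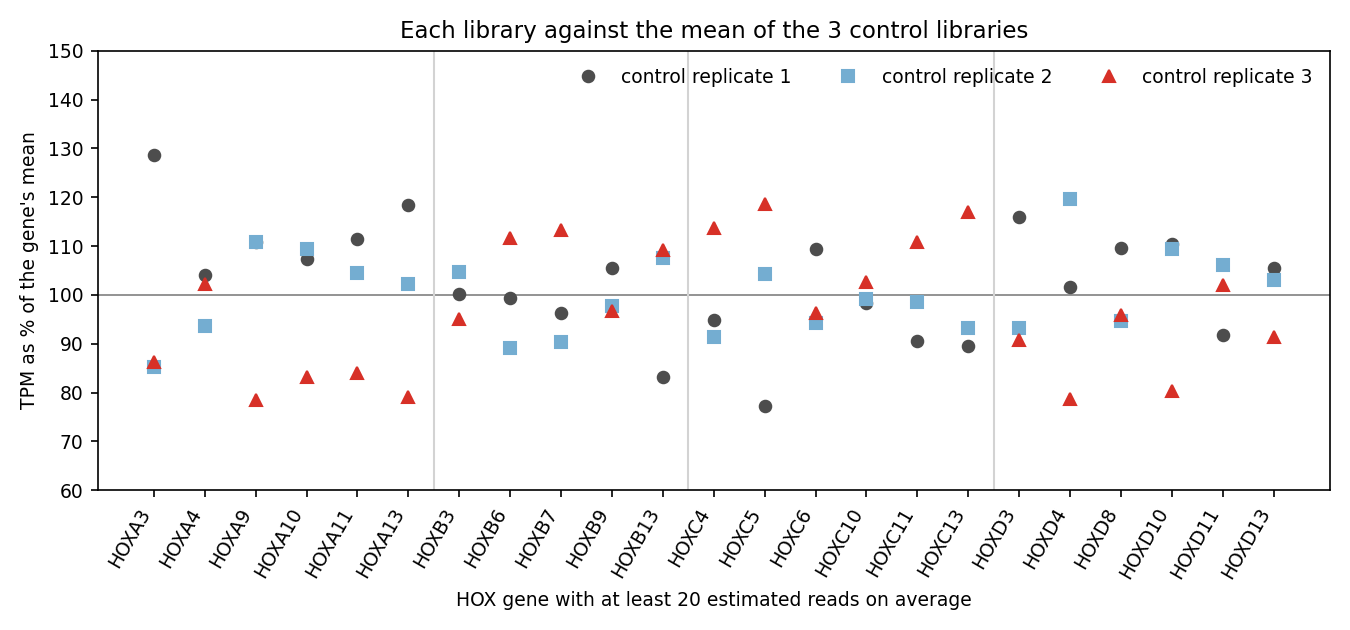
TPM in each library as a percentage of the gene's mean over the 3 libraries labelled control, for the 23 HOX genes with at least 20 estimated reads on average, grouped by cluster. Replicate 3 lies lowest for HOXA9, HOXA10, HOXA11, HOXA13, HOXB3, HOXB9, HOXD3, HOXD4, HOXD10 and HOXD13. It lies highest for HOXB6, HOXB7, HOXB13, HOXC4, HOXC5, HOXC10, HOXC11 and HOXC13.

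Genes next to the clusters were set beside them. The HOXA genes lie on chromosome 7. Beyond HOXA13, EVX1, a homeobox gene at the tail end of the cluster, had 4.56, 4.21 and 3.88 TPM, and on the other side of the cluster the adaptor gene SKAP2 had 19.99 TPM ± 2.07. The measured HOXB genes span 186 kb of chromosome 17 (chr17:48542655-48728750), of which 98404 bp lie between HOXB9 and HOXB13. Inside that gap, beside HOXB13, PRAC1 had 125, 126 and 111 TPM (120.7 TPM ± 8.18) and PRAC2 24.7, 22.9 and 24.0 TPM (23.9 TPM ± 0.940). Both are small genes known from prostate, rectum and colon, and PRAC1 was higher than any HOX gene in every library. On the outer sides, SKAP1 had 0.0567 TPM ± 0.0115 and TTLL6 0.693 TPM ± 0.325. The measured HOXC genes span 117 kb (chr12:53938831-54056030) between CALCOCO1 (13.5 TPM ± 0.805) and the DNA repair gene SMUG1 (38.1 TPM ± 1.08). The measured HOXD genes span 103 kb (chr2:176087487-176190907) between EVX2 (0.637 TPM ± 0.0379) and the mitochondrial gene MTX2 (102.5 TPM ± 2.96). EVX2 lies 3525 bp from the outer end of the RefSeq span of HOXD13. The HOXD13 start used for the promoter window above lies inside that span. HOXD13 thus stood between EVX2 and HOXD12, both under 1 TPM in every library. Non-coding RNAs of the clusters, such as HOTAIR and HOTTIP, are not analysed here. The libraries keep the strand per the labels, but no source used here says whether counting used it, so reads of a HOX gene and an antisense transcript over it may not be told apart.

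HOX proteins bind DNA together with cofactors of the TALE homeobox class, and all 9 of these were detected, beside 66.5% of all genes. PBX2 was highest at 56.9 TPM ± 2.22, above every HOX gene, followed by PBX3 (17.8 TPM ± 1.18), MEIS2 (13.6 TPM ± 1.87) and MEIS1 (9.12 TPM ± 0.429). PBX4 had 7.34 TPM ± 1.22, PKNOX1 6.72 TPM ± 0.580, MEIS3 4.69 TPM ± 0.210 and PKNOX2 1.87 TPM ± 0.127. The list's median was 7.76 TPM ± 0.588, against 1.51 TPM for HOX genes and 6.83 TPM for all genes.

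Polycomb complexes keep silent HOX genes off, and trithorax-type complexes keep active ones on. Of 30 Polycomb genes 29 passed detection, or 96.7%, beside 66.5% of all genes. The median level was 19.8 TPM ± 0.722 and the highest were PCGF1 (167.6 TPM ± 2.40), the methyltransferase gene EZH2 (88.1 TPM ± 11.1) and the ubiquitin ligase gene RING1 (74.3 TPM ± 3.13). CBX7, a chromodomain subunit, was the exception at 0.840 TPM ± 0.174. All 19 trithorax and MLL genes passed detection as well. Their median level was 13.6 TPM ± 0.270 and the highest were PSIP1 (178.3 TPM ± 33.1), DPY30 (125.0 TPM ± 2.71) and ASH2L (59.9 TPM ± 4.22). PSIP1, which tethers MLL complexes to chromatin, had 210, 181 and 144 TPM in replicates 1, 2 and 3.

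**Figure D4:**
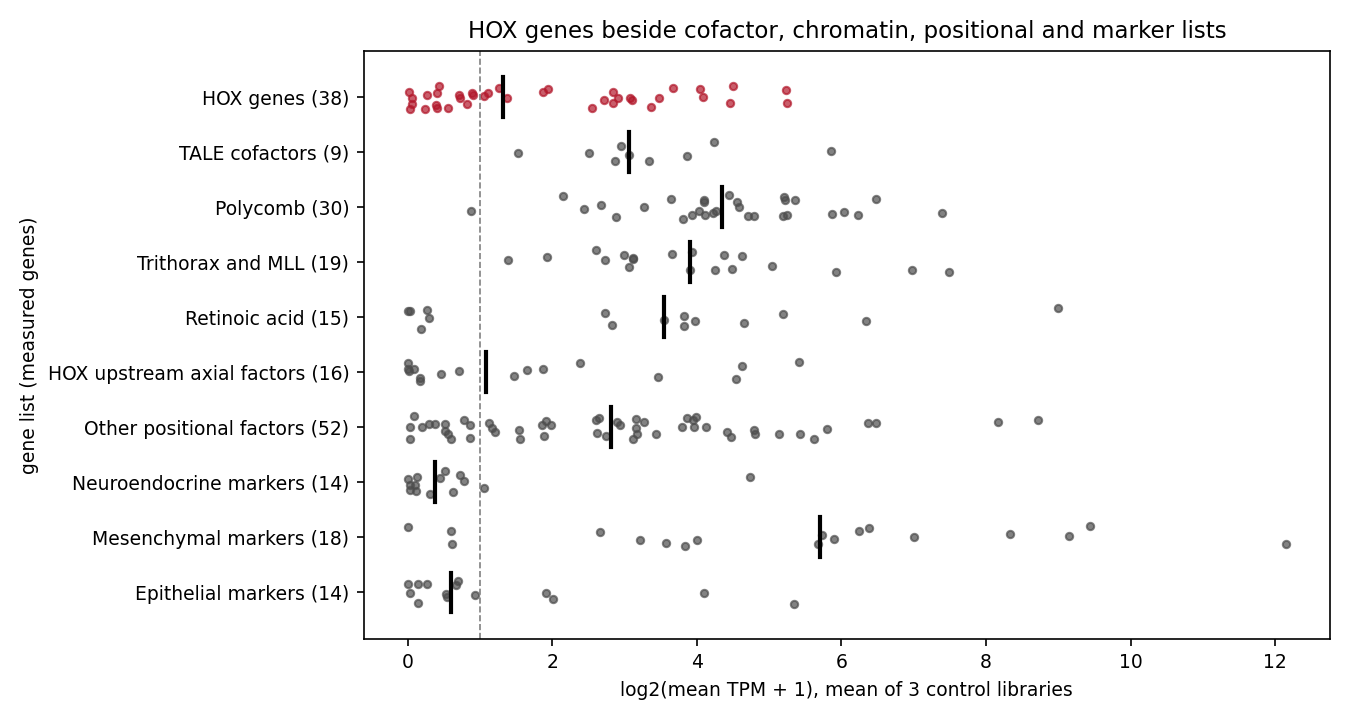
Mean level over the 3 libraries labelled control, as log2(mean TPM + 1), of each measured gene in the HOX clusters and in 9 lists; thick bars are list medians and the dashed line is 1 TPM. TALE cofactors, Polycomb and trithorax genes lie almost wholly to the right of 1 TPM, while HOX genes spread on both sides of it.

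Retinoic acid switches on HOX genes in order from the head end. Of 15 measured genes of this pathway 10 were detected, or 66.7%, a share like the 66.5% of all genes. The binding protein gene CRABP2 had 467, 482 and 586 TPM (511.8 TPM ± 64.4), the receptor gene RARG 73.7, 75.5 and 91.4 TPM (80.2 TPM ± 9.75) and the receptor gene RXRB 35.4 TPM ± 1.29. The list includes enzymes that make and remove retinoic acid, and among these ALDH1A2 was listed at 0 TPM in all libraries, CYP26A1 had 0.230 TPM ± 0.0529 and ALDH1A1 13.2 TPM ± 0.575. Of 16 measured genes that act on the clusters or on the body axis 8 were detected, or 50%, beside 66.5% of all genes, led by the insulator protein gene CTCF (41.8 TPM ± 2.87), the growth factor gene GDF11 (23.6 TPM ± 1.30) and ZNF503 (22.2 TPM ± 0.869). CDX2, a hindgut factor that activates HOX genes of the trunk and tail, had 1.88, 1.45 and 1.96 TPM, and CDX1 was listed at 0 TPM.

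Regional factors outside the HOX clusters were also expressed in part. Of 52 measured genes 38 were detected, or 73.1%, beside 66.5% of all genes, with a median of 6.05 TPM ± 0.145. The highest were MSX2 (421.2 TPM ± 28.7), LHX9 (286.4 TPM ± 18.6) and MSX1 (87.9 TPM ± 11.98), homeobox genes of limb bud, face and gonad. Factors of the limb type were unequal: PITX1, which marks the hindlimb, had 38.8, 40.1 and 47.04 TPM (42.0 TPM ± 4.44), TBX5, which marks forelimb, heart and lung, 1.35, 1.22 and 1.38 TPM, and TBX4, which marks hindlimb and lung, 0.340, 0.170 and 0.160 TPM. PITX1 was thus over 1 order of magnitude above TBX5 and TBX4 in each library, while the latter lay near or under 1 TPM.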

How the data were processed

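Poly(A) RNA of 3 samples labelled control was analysed. HISAT2, StringTie, DESeq2 and the build GRCh38 are named, without versions or roles, per the submitters' processing notes. No source used here gives the annotation release, gene filters or read length. Per the file headers the authors deposited TPM, FPKM and estimated counts with decimals for each library. Counts scaled by the authors (a signal with no stated scaling) and the deposited averages were not used, nor were 16 columns under a prefix that matches no sample.

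Columns were given to samples by name. The members, gene lists and thresholds were chosen with earlier results of these data known. Symbols named HOX members, 38 of which matched RefSeq (GRCh38.p14) by gene number. Named by rule are the members, the TALE cofactors, the 3 highest genes of each list, fixed markers and the nearest gene beside each cluster; other genes (NKX2-1, CBX7, ALDH1A1, ALDH1A2, CYP26A1, CDX1, CDX2, PITX1, TBX4, TBX5, PRAC1, PRAC2 and those in the closing section) were picked after their values were seen. A few genes that the rule names are not reported here, though counts, sums and medians include them. Sequences of HOXC10 and its paralogs were printed by rule, and those of the paralogs 13 and the HOXD promoters were added after values were seen. Detection needed 1 TPM in all libraries, log2 values had 1 added, and comparisons of libraries needed 20 reads on average. Counting error is Poisson and covers counting only. Genes under 1 TPM rest on few reads. Alternatives were FPKM, estimated reads, other TPM minimums, a pseudocount of 0.1 and leaving out each library. Only the detection rule and the ranking of libraries were tried on simulated reads, with results not reported here. The work ran in Python 3.11.15 with scipy 1.17.1, pandas 2.3.3, matplotlib 3.10.9 and numpy 2.4.6.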

Additional observations from a re-analysis of the deposited data

How the results depend on the processing

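The 21 detected members became 14 at 5 TPM, 18 by FPKM, 24 at 0.5 TPM, 26 by a count of 10 estimated reads (52.6%, 63.3%, 70.2% and 73.0% of all genes) and 21 to 22 without each library in turn. Members with a mean of at least 10 were 4 in FPKM (34.2% of all genes) against 8 in TPM (44.1%), since FPKM is lower than TPM for all genes here, and 7 to 8 without each library; reads have no equivalent of 10 TPM, so that alternative was not run. On estimated reads, where length is not divided out, the cluster shares became 33.8% for HOXA, 23.0% for HOXB, 30.5% for HOXC and 12.7% for HOXD, so HOXA and not HOXC was highest. TPM and FPKM differ by 1 factor per library, so shares in both are equal by construction. Without each library in turn HOXA held 23.6% to 26.8%, HOXB 23.6% to 24.4%, HOXC 33.9% to 36.6% and HOXD 14.99% to 15.69%. The HOX median lay below that of all genes by -1.65 on the log2 scale, and by -1.40 with FPKM, -2.69 with estimated reads, -2.12 with 0.1 added and -1.68 to -1.63 without each library. Of the 10 highest members, 7 stayed with estimated reads and 9 to 10 without each library. A minimum of 100 reads, chosen after seeing the data, left HOXC highest in replicate 3 in 4 of 5 genes and HOXB in 2 of 3. No paired analysis was possible because knockout columns could not be assigned.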

Other observations

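Genes widely reported as bound or regulated by HOX proteins were on both sides of the detection limit. Of 20 measured genes 12 passed detection, or 60%, beside 66.5% of all genes, and the median level was 7.79 TPM ± 0.174. The highest were the growth factor gene VEGFA (147.4 TPM ± 4.24), the matrix proteoglycan gene DCN (52.0 TPM ± 1.44), which is also among the mesenchymal markers, and the cell cycle factor gene FOXM1 (50.2 TPM ± 1.48). Signals of the limb bud were split: BMP7 had 32.8 TPM ± 0.442, BMP4 16.1 TPM ± 0.913 and the hedgehog effector gene GLI3 8.65 TPM ± 1.45, while SHH had 0.320, 0.020 and 0.030 TPM, GREM1 0.0367 TPM ± 0.0321 and FGF10 0.00667 TPM ± 0.0115. Markers of blood and vessel cells were nearly absent, with 1 of 9 measured genes detected, CD68 at 1.36 TPM ± 0.281. PTPRC had 0.517 TPM ± 0.343.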
